A study of Danio rerio with 15 samples.

Results

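The genes described here are the 6 HOX genes of paralog group 13 that were measured in the caudal fin of zebrafish: *hoxa13a*, *hoxa13b*, *hoxb13a*, *hoxc13a*, *hoxc13b* and *hoxd13a*. They were taken by gene symbol, as 6 of the 23926 genes in the authors' 3 pairwise tables, and all 6 are present in every table. The choice of this group was made with earlier results of these data known. RNA of AB WT fins was sequenced at 3 places along the axis from tip to base, called distal, middle and proximal, with 5 libraries for each. Each library is a pool of fin pieces from 4 fish, 2 male and 2 female. The fish carry no transgene or treatment that the labels name, their age is not given, and the labels do not say whether the 3 places of a fin came from the same fish. The title of the series names positional memory, the property by which cells of an appendage keep a record of where they lie.

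HOX genes encode homeodomain transcription factors and lie in clusters whose order along the chromosome follows the order in which they act along the body. Group 13 is the last group, at the 5′ end of the clusters, and its genes act at the ends of structures: the hind end of the body axis and the outer part of limbs and fins. In zebrafish and mouse, the A and D cluster members are known for their part in the distal fin skeleton and the digits, the C cluster member of mouse for hair and nails, and the B cluster member of mouse for where the tail ends. Zebrafish carry duplicates of the A and C cluster members from the teleost genome duplication, named *hoxa13a* and *hoxa13b*, and *hoxc13a* and *hoxc13b*.

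Read counts of single libraries were recovered from the digits of the deposited position means, and all 6 genes had 1 proven solution in each library. The recovered genes summed to between 13446692 and 17623098 reads in the distal libraries, between 17061153 and 19849843 in the middle ones and between 17578447 and 19093272 in the proximal ones, of which 5080541 to 6941599 a library lay in genes with a proven solution. Libraries are numbered by falling size factor within a position, and the replicate numbers given in the labels could not be tied to them. Levels are normalized counts, reads divided by the size factor of the library, and are not divided by transcript length, so they compare positions within a gene and not one gene with another. A gene was called where the adjusted p in the authors' deposited table, computed with DESeq, was under 0.05.

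The 3 positions also differed in the genes that mark cell types. Between distal and proximal fin, the authors' deposited table called 8 of 8 melanophore genes and 7 of 8 fin fibroblast genes higher distally, with the other fibroblast gene, *tph1b*, lower. That table called 17.9% of all genes higher and 18.1% lower distally, the shares beside which each count of this paragraph stands. It called 3 of 4 mucous cell genes, 4 of 5 leukocyte genes and 3 of 4 Schwann cell genes lower distally, with the other Schwann cell gene, *sox10*, higher. The summed mucous cell genes ran from 562 to 918 normalized counts in distal libraries and from 26176 to 31668 in proximal ones. Most of that proximal sum was 1 gene, *muc5.2*, at 229 ± 182 in distal and 26672 ± 2391 in proximal libraries. The mucous cell gene *muc5.3* was not called (67.7 in distal and 56.6 in proximal libraries). The summed melanophore genes ran from 5140.1 to 6974 in distal and from 1714 to 2258 in proximal libraries. The summed fibroblast genes ran from 39064 to 45650 in distal libraries and from 22438 to 30817 in proximal ones. Most of that sum was *col1a2*, at 37324 ± 3003 in distal and 25479 ± 2984 in proximal libraries. Genes at levels such as those of *col1a2* and *muc5.2* may lack a proven solution. The ranges of the mucous cell and fibroblast sums over libraries are therefore uncertain. The fibroblast gene *and2* had 0 reads in all 5 proximal libraries. Osteoblast genes had 3 called higher and 1 lower of 7, and the skeletal muscle list, of which 5 of 9 were measured, had 1 called lower. Of 6 epidermis genes 3 were called higher (*krt4*, *krt1-19d* and *col17a1a*) and 1 lower (*krt5*). Of 5 endothelium genes 2 were called higher and 1 lower. These libraries are bulk tissue, in which fewer cells of a type and less RNA per cell cannot be told apart, and the part of these cell type differences in the results below was not tested.

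The distal fin carried more RNA of 4 of the 6 group 13 genes than the proximal fin and less of *hoxb13a*, while the difference in *hoxc13b* was small and did not pass the test. In the authors' deposited table *hoxa13a*, *hoxa13b*, *hoxc13a* and *hoxd13a* were called higher distally and *hoxb13a* lower, so that 5 of 6 were called, against 36.0% of all genes tested. Of all genes, 17.9% were called higher and 18.1% lower. Between middle and proximal fin 1 of 6 was called, *hoxa13b*, which was higher in the middle, against 7.31% of all genes, 3.51% higher and 3.80% lower. Between distal and middle fin 2 of 6 were called, *hoxa13a* higher and *hoxb13a* lower in distal, against 26.2% of all genes, 13.3% higher and 12.9% lower. The limma fit of the recovered counts, which calls more of all genes, called 6 of 6 between distal and proximal fin against 51.5% of genes, 2 of 6 between middle and proximal fin against 13.8%, and 3 of 6 between distal and middle fin against 38.7%. In that fit a gene needed at least 10 reads in 5 libraries. *hoxd13a* met this through distal and middle libraries alone, and *hoxb13a* through middle and proximal libraries alone. Their limma calls are therefore no separate support. The 3 comparisons share libraries and are not independent of each other.

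**Figure D1:**
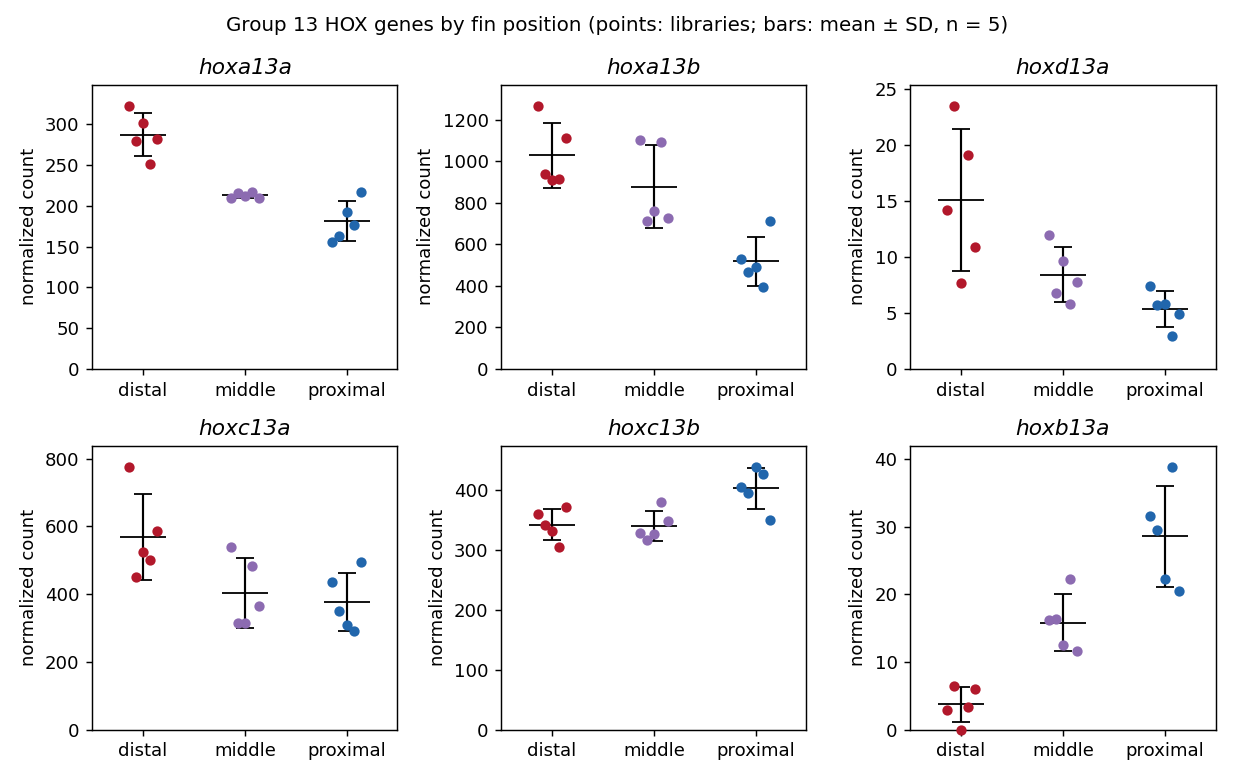
Normalized counts (vertical axes, each starting at 0) of the 6 genes in the 5 distal, 5 middle and 5 proximal libraries. Points are libraries and bars the mean ± SD. *hoxb13a* is lowest distally (3.73 ± 2.61), *hoxa13a* is highest distally (287 ± 26.4), and *hoxc13b* has its highest mean proximally (402 ± 34.0).

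*hoxa13a* (ENSDARG00000100312), one of the duplicated A cluster genes, stood at 322, 279, 301, 251 and 282 normalized counts in the distal libraries. It stood at 209.7, 215, 212, 216 and 209 in the middle and at 156, 163, 192, 176 and 217 in the proximal libraries. All 5 distal libraries lay above every middle and proximal library, while the middle and proximal libraries overlapped. The middle libraries lay close together, with an SD of 3.24 normalized counts against 26.4 in distal and 24.5 in proximal fin. By the authors' deposited table *hoxa13a* was 1.59-fold higher in distal than in proximal fin (adjusted p = 4.82e-06) and 1.34-fold higher in distal than in middle fin (adjusted p = 0.00507). The middle level was 1.18-fold the proximal one and was not called (adjusted p = 0.398).

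*hoxa13b* (ENSDARG00000036254), its duplicate, stood at 1267, 939.7, 911, 917 and 1115 normalized counts in the distal libraries. It stood at 1102, 712, 759, 1095 and 727 in the middle and at 532, 465, 490.4, 395 and 712 in the proximal libraries. Distal and middle libraries overlapped, and both lay above the proximal ones, although the lowest middle library (711.6) and the highest proximal library (711.5) were almost equal. The middle libraries formed a pair at 1095 and 1102 and a set of 3 between 712 and 759. The authors' deposited table put the middle level at 1.70-fold the proximal one (adjusted p = 0.00823) and the distal level 1.99-fold the proximal one (adjusted p = 2.67e-08). The distal level was 1.16-fold the middle one and not called (adjusted p = 0.405). The limma fit of the recovered counts put this last difference at 0.24 on the log2 scale, with a 95% confidence interval of −0.07 to 0.56 that reaches a higher level distally of the size seen in *hoxa13a*, 0.43.

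*hoxd13a* (ENSDARG00000059256), the D cluster gene, rested on few reads. It had 15, 22, 7, 17 and 9 reads in the distal libraries, 14, 7, 10, 6 and 8 in the middle ones and 8, 6, 6, 3 and 5 in the proximal ones. In normalized counts it averaged 15.1 ± 6.32 in distal, 8.39 ± 2.46 in middle and 5.35 ± 1.64 in proximal libraries (SD, n = 5 each). The lowest distal library (7.69) lay just above the highest proximal one (7.43), and the middle libraries overlapped both. In the authors' deposited table the distal level was 2.81-fold the proximal one (adjusted p = 0.00403), the middle level 1.57-fold the proximal one (adjusted p = 0.632) and the distal level 1.78-fold the middle one (adjusted p = 0.124). The middle was called against neither end, and the limma interval for middle over proximal, −0.15 to 1.40 on the log2 scale, is wide. It passed the minimum of the limma fit, 10 reads in 5 libraries, through 3 distal and 2 middle libraries alone.

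*hoxc13a* (ENSDARG00000070353), one of the duplicated C cluster genes, stood at 776, 450.1, 524, 502 and 588 normalized counts in the distal libraries. It stood at 538, 314, 315, 483 and 365 in the middle and at 436, 351, 309.5, 292 and 496 in the proximal libraries. The distal libraries overlapped both other positions, with distal library 1 far above the rest. In the authors' deposited table the distal level was 1.51-fold the proximal one (adjusted p = 0.0148) and the middle level 1.07-fold the proximal one (adjusted p = 0.926). The distal level was 1.40-fold the middle one and was not called (adjusted p = 0.0852). The limma fit called that difference, at 0.50 on the log2 scale (SE 0.18, adjusted p = 0.0300). It lost the call when any 1 of distal libraries 1 and 5 or middle libraries 2, 3 and 5 was left out (limma adjusted p 0.0574 to 0.0928). It also lost the call with library totals over genes with a proven solution as the scale (limma adjusted p = 0.0529).

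*hoxc13b* (ENSDARG00000090023), the duplicate of *hoxc13a*, stood at 360.1, 341, 332, 304 and 370.4 normalized counts in the distal libraries. It stood at 328, 316, 326, 379 and 348 in the middle and at 404, 394, 438, 425 and 349.9 in the proximal libraries. The 3 positions overlapped, and 4 of the 5 proximal libraries lay above every distal and middle library. No pair was called in the authors' deposited table: distal over proximal fold was 0.849 (adjusted p = 0.132), middle over proximal 0.844 (adjusted p = 0.273) and distal over middle 1.00 (adjusted p = 1). The limma fit called it lower in distal than in proximal fin, at −0.23 on the log2 scale (SE 0.080, adjusted p = 0.0195), and that call was lost where the positions were scaled to equal totals (adjusted p = 0.0856), without distal library 4 (0.0612) and without proximal library 3 (0.0545). The same fit put middle over proximal at −0.24 (adjusted p = 0.0448, up to 0.119 without proximal library 3). That call was kept in 5 of 15 fits with 1 library left out. Among compared libraries it was kept only without middle library 4 or proximal library 5. The other fits that kept it left out distal library 1, 4 or 5, which are not in this comparison. The limma fit put distal over middle at 0.01, with a 95% confidence interval of −0.16 to 0.18.

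*hoxb13a* (ENSDARG00000056015), the B cluster gene, ran against the other group 13 genes that were called. It had 3, 6, 0, 3 and 5 reads in the distal libraries, 19, 17, 13, 23 and 12 in the middle ones and 34, 31, 23, 40 and 21 in the proximal ones. All distal libraries lay below all others, and the middle and proximal libraries overlapped. In normalized counts it averaged 3.73 ± 2.61 in distal, 15.8 ± 4.21 in middle and 28.5 ± 7.42 in proximal libraries (SD, n = 5 each). In the authors' deposited table it was 7.66-fold lower in distal than in proximal fin (adjusted p = 1.67e-11), and the distal level was 0.234 of the middle one (adjusted p = 8.91e-05). The middle level was 0.555 of the proximal one and missed the threshold (adjusted p = 0.0512), as it did in the limma fit (adjusted p = 0.0819). Limma called it with the middle and proximal libraries alone (adjusted p = 0.0394) and without distal library 3 (adjusted p = 0.0262). The mucous cell, leukocyte and Schwann cell genes were mostly lower distally in the same libraries. The summed leukocyte genes ran from 1086 to 1639 in distal and from 1608 to 2405 in proximal libraries. The summed Schwann cell genes ran from 592 to 759 in distal and from 1165 to 1400 in proximal libraries. Over the 15 libraries, deviations of *hoxb13a* from its position means had a Pearson r of −0.11 with those of the summed mucous cell genes. With the leukocyte genes r was 0.10 and with the Schwann cell genes −0.07. For the other sums it was −0.42 with epidermis, 0.16 with skeletal muscle and 0.13 with endothelium. It was 0.11 with fin fibroblast, −0.10 with melanophore and −0.04 with osteoblast genes. These r values describe libraries within a position, lean on the few distal reads of *hoxb13a* and carry no test. The part of the mucous cell, leukocyte and Schwann cell genes in the difference between positions was not tested. *hoxb13a* was the single group 13 gene in the authors' table of monotonic genes. It was not the only one with ordered means: those of *hoxa13a*, *hoxa13b*, *hoxc13a* and *hoxd13a* fell from distal through middle to proximal fin.

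Read library by library, without a model, the picture was similar. The libraries of the compared positions did not overlap for 4 of 6 genes between distal and proximal fin, against 30.7% of all genes. Among them *hoxd13a* rested on a near tie. Its lowest distal library stood at 7.69 normalized counts, from 7 reads, and its highest proximal one at 7.43, from 8 reads. The count was 1 of 6 between middle and proximal fin, against 9.23% of all genes and resting on the near tie of *hoxa13b* given above, and 2 of 6 between distal and middle fin, against 22.7%. The means stood in the order distal, middle, proximal from high to low for 4 of 6 genes, an order that 26.6% of all genes had, and in the reverse order for *hoxb13a*, which 30.4% had. *hoxc13b* was highest proximally, then distally, then in the middle, and its distal and middle levels did not differ beyond their spread.

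**Figure D2:**
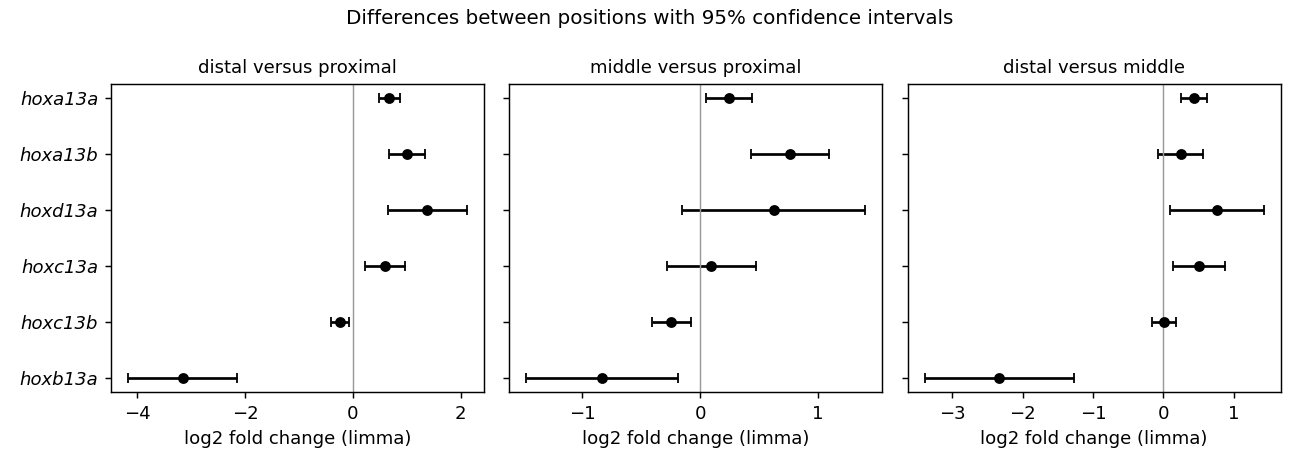
Log2 fold change (horizontal axes, whose ranges differ between panels) of each gene in the limma fit of the recovered counts, with 95% confidence intervals, for distal versus proximal, middle versus proximal and distal versus middle fin. The interval of *hoxb13a* lies below 0 in each panel, although its middle versus proximal difference is not called (adjusted p = 0.0819), and the intervals of *hoxa13a*, *hoxa13b*, *hoxc13a* and *hoxd13a* lie above 0 for distal versus proximal.

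The place of the change along the fin was compared by testing the outer step, distal minus middle, against the inner step, middle minus proximal, within each gene. The inner step of *hoxa13b* was 0.76 and its outer step 0.24 on the log2 scale. The inner step of *hoxc13a* was 0.09 and its outer step 0.50, and those of *hoxa13a* were 0.24 and 0.43. With limma and adjustment over all genes, the steps differed in 0 of 6 genes, against 11.4% of all genes. For *hoxb13a* the outer minus the inner step was −1.50 (95% confidence interval −2.93 to −0.07, limma unadjusted p = 0.0412, adjusted p = 0.181). That interval is not adjusted for the number of genes. For *hoxa13b* the difference of the steps was −0.52 (adjusted p = 0.241). The outer and inner steps were therefore not shown to differ within any of the 6 genes, and the intervals allow sizeable differences. Whether the genes differ from each other in the step at which they change was not tested.

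The balance of the duplicated genes was read within each library, where it does not depend on how libraries are scaled. How reads that match both copies were counted is not given in the sources used here, and transcript lengths were not used, so only changes of the ratio between positions are read. There were 3.58 ± 0.392 reads of *hoxa13b* per read of *hoxa13a* in distal, 4.14 ± 0.942 in middle and 2.87 ± 0.487 in proximal libraries (SD, n = 5 each). The middle libraries split into 5.26 and 5.06 in a pair and 3.30 to 3.59 in the other 3. The log2 ratio was higher by 0.52 in middle than in proximal fin (exact two-sided permutation test, p = 0.0159, adjusted over 6 tests 0.0476). It was higher by 0.33 in distal than in proximal fin (exact permutation p = 0.0476, adjusted 0.0714), and the distal minus middle difference was −0.18 (exact permutation p = 0.310, adjusted 0.310).

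There were 1.66 ± 0.306 reads of *hoxc13a* per read of *hoxc13b* in distal, 1.19 ± 0.283 in middle and 0.956 ± 0.302 in proximal libraries (SD, n = 5 each). The ratio was 1.78-fold higher in distal than in proximal fin, 0.83 on the log2 scale (exact two-sided permutation test, p = 0.0159, adjusted 0.0476). All distal libraries had more reads of *hoxc13a* than of *hoxc13b*, from 1.32 to 2.15 per read, and the proximal libraries ran from 0.687 to 1.42, so the groups overlapped. Distal exceeded middle fin by 0.49 (exact permutation p = 0.0476, adjusted 0.0714) and middle exceeded proximal fin by 0.33 (exact permutation p = 0.214, adjusted 0.257). The smallest p that 5 against 5 libraries allow is 0.00794. With 1 library left out the adjusted p passed the threshold in 5 of 15 tests for *hoxc13a* over *hoxc13b* between distal and proximal fin and in 3 of 15 for *hoxa13b* over *hoxa13a* between middle and proximal fin.

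**Figure D3:**
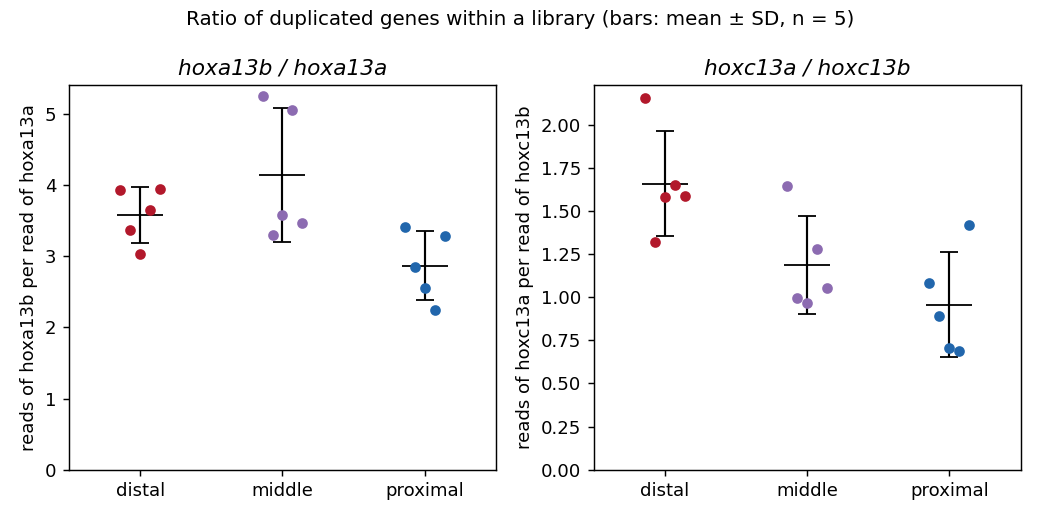
Reads of *hoxa13b* per read of *hoxa13a* and of *hoxc13a* per read of *hoxc13b* (vertical axes, each starting at 0) in the distal, middle and proximal libraries, with mean ± SD. The first ratio has its highest mean in the middle (4.14) and the second its highest distally (1.66).

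Other HOX genes were read in the same tables for comparison. The distal versus proximal table held 40 genes of groups 1 to 12. The authors' DESeq test called 8 of them higher and 0 lower, beside 17.9% and 18.1% of all genes. The 8 were *hoxa1a*, *hoxa4a*, *hoxa9b*, *hoxa10b*, *hoxa11a*, *hoxa11b*, *hoxc11b* and *hoxd4a*. At an unadjusted p under 0.05 that test had 1 lower, *hoxb5b*. Limma called 0 lower, but only 32 of these genes passed its minimum of reads. *hoxb5b*, at 0.822 normalized counts in distal and 4.21 in proximal libraries, was too low to pass it. The median log2 fold was 0.63 over the 6 genes of group 13, 0.34 over 17 genes of groups 9 to 12 and 0.17 over 23 genes of groups 1 to 8, beside −0.04 over all genes. Along the clusters, the hoxab cluster had 4 of 5 measured genes called higher distally, with *hoxa13b* among the 4. The hoxaa cluster had 4 of 6, with *hoxa13a* among the 4. In the hoxba cluster *hoxb13a* was the single gene of 10 called, and in the hoxca cluster *hoxc13a* was the single gene of 11. Between middle and proximal fin 0 of 41 were called higher, beside 3.51% of all genes (0 at an unadjusted p under 0.05). Limma, for which 32 passed the minimum, called 0 higher after adjustment and 1 before it, *hoxd4a*. *hoxb10a* was called lower in the middle (61.1 ± 12.1 normalized counts in middle against 88.3 ± 8.62 in proximal libraries, adjusted p = 0.0453 in the authors' deposited table). *hoxa13b* was the only one of the 47 measured HOX genes called higher in the middle than in the proximal fin in that table. Between distal and middle fin 8 of 40 were called higher and 0 lower, beside 13.3% and 12.9% of all genes. Among the 8 were *hoxa10b* and *hoxa11b*, which lie beside *hoxa13b*. At an unadjusted p under 0.05 the authors' test had 1 lower, *hoxb5b*. Limma called 0 lower among the 32 that passed its minimum, which *hoxb5b* did not reach.

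**Figure D4:**
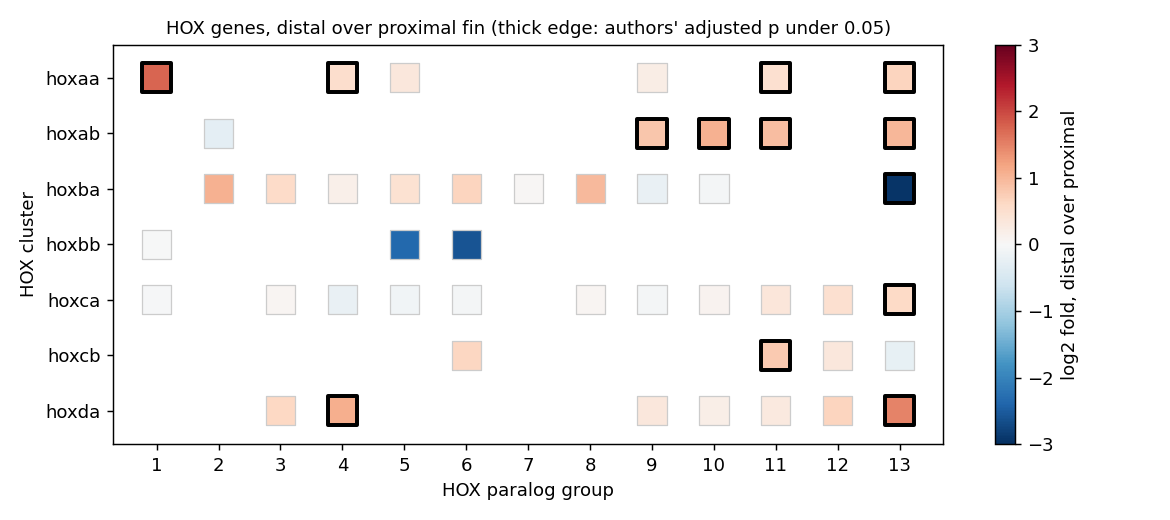
Log2 fold of distal over proximal fin, from the authors' deposited table, for each measured HOX gene by paralog group (horizontal axis) and cluster (vertical axis). Red is higher and blue lower in distal fin, and a thick edge marks an adjusted p under 0.05. The calls of the A clusters are all red, and *hoxb13a* is the single blue square with a thick edge.

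The genes next to each group 13 gene were taken from the gene order of RefSeq GRCz12tu, used for neighbours only. Beside *hoxa13b*, *hoxa11b* stood at 64.3 ± 14.1 normalized counts in distal and 34.0 ± 8.52 in proximal libraries, a 1.89-fold higher level in the authors' deposited table (adjusted p = 0.000125), and *hoxa10b* was 2.10-fold higher. On the other side *hibadhb*, which lies outside the cluster, was not called (fold 0.947, adjusted p = 0.716), and *tax1bp1b* beyond it was called higher (fold 1.97, adjusted p = 2.39e-18). Beside *hoxc13a*, *calcoco1a* outside the cluster was called higher distally (fold 2.23, adjusted p = 1.63e-18), and *hoxc12a* inside it was not (fold 1.39, adjusted p = 0.124).

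Beside *hoxb13a*, *hoxb10a* stood at 84.0 ± 10.7 in distal and 88.3 ± 8.62 in proximal libraries (fold 0.952, adjusted p = 0.854 in the authors' deposited table), so its nearest measured HOX neighbour was not called. Beside *hoxd13a*, *hoxd12a* had a fold of 1.58 (adjusted p = 0.197). Beside *hoxc13b*, *hoxc11b* was called higher distally (fold 1.73, adjusted p = 0.000129) and *hoxc12b* was not (fold 1.26, adjusted p = 0.274). In that annotation *evx1* overlaps *hoxa13a* and *calcoco1b* overlaps *hoxc13b*. The strand setting of the counting is not given in the sources used here, so reads of these overlapping genes cannot be told apart with certainty. *evx1* averaged 42.7 normalized counts in distal and 59.7 in proximal libraries (fold 0.716, adjusted p = 0.0727), a direction opposite to that of *hoxa13a*.

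Libraries of one position differed from each other in *hoxa13b* and *hoxc13a* together. The highest levels of both relative to the position mean were in distal library 1, middle libraries 1 and 4 and proximal library 5. There *hoxa13b* stood at 1.24, 1.28, 1.27 and 1.40 times its geometric position mean, and *hoxc13a* at 1.39, 1.37, 1.23 and 1.34 times. Over the 15 libraries the log2 deviations from the position means had a Pearson r of 0.92 for this pair, genes that lie in different clusters. For the duplicates r was lower, at 0.47 for *hoxa13b* with *hoxa13a* and 0.01 for *hoxc13a* with *hoxc13b*, and *hoxa13b* with *hoxc13b* had 0.02. These values describe 15 libraries, in each of which all genes share 1 size factor, and carry no test.

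**Figure D5:**
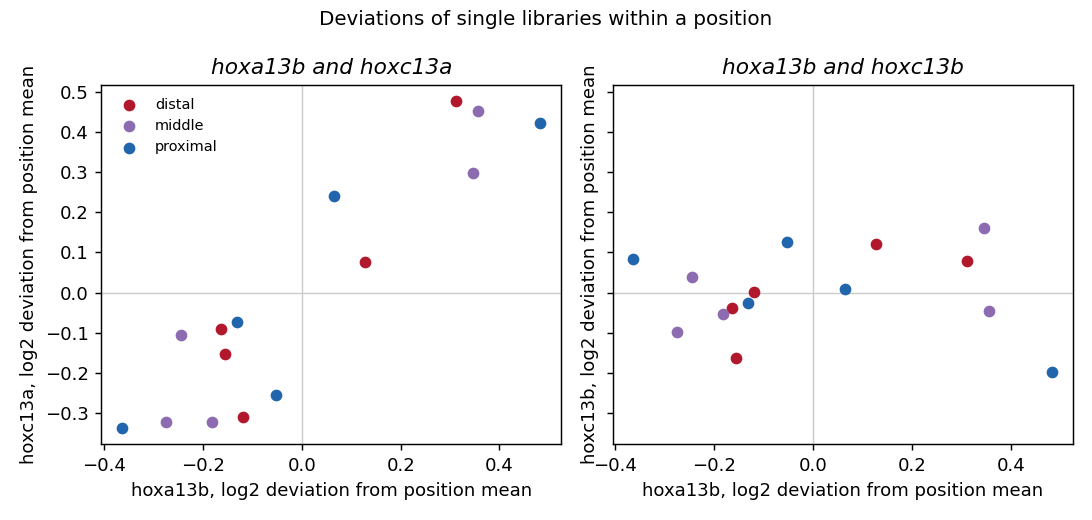
Log2 deviation of each library from its position mean for *hoxa13b* (horizontal axes) against *hoxc13a* (left) and *hoxc13b* (right), coloured by position. The points of *hoxc13a* follow those of *hoxa13b* (r = 0.92 over 15 libraries), and those of *hoxc13b* do not (r = 0.02).

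Some other HOX genes shared these deviations and others did not. Of 22 HOX genes of groups 1 to 12 compared, 8 had an r over 0.8 with *hoxa13b* and 6 with *hoxc13a*, with medians of 0.62 and 0.63, and 0 had one with *hoxa13a* or *hoxc13b*. The deviations of *hoxa13b* had an r of 0.94 with those of *hoxc9a*, 0.94 with *hoxc12a*, 0.93 with *hoxc11a* and 0.88 with *hoxa4a*, against 0.26 with *hoxc11b*, −0.10 with *hoxb10a* and −0.18 with *hoxa9b*, the lowest of the 22. Of the 14292 genes compared, 2.03% had an r over 0.8 with *hoxa13b* and 2.05% with *hoxc13a*, against 0.0420% with *hoxa13a* and 0.0350% with *hoxc13b*. The summed markers of blood vessel endothelium went the other way, with an r of −0.67 to *hoxa13b* and −0.70 to *hoxc13a*, as did those of melanophores, at −0.66 and −0.62. Those of osteoblasts had an r of 0.54 and 0.64, those of mucous cells −0.56 and −0.59 and those of Schwann cells −0.48 and −0.56. For fin fibroblasts r was 0.18 and 0.15, for leukocytes −0.21 and −0.32, for skeletal muscle 0.30 and 0.24 and for epidermis −0.19 and −0.14. The size factor of the library had an r of 0.35 and 0.48. Single genes carried most of some sums: *muc5.2* for mucous cells, *col1a2* for fin fibroblasts and *col10a1a* for osteoblasts. The epidermis sum was mostly *krt4* and *krt5*, at 107323 ± 65842 and 110365 ± 54061 normalized counts in distal libraries. In middle libraries the SD of *krt4* was 6742. At such levels the recovered counts may lack a proven solution, so the r of that sum is uncertain. The same may hold for the sums carried by *muc5.2* and *col1a2*. The part of these markers and of the size factor in the shared deviations was not tested.

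The genes whose levels over the 15 libraries were most like each group 13 gene were named by Pearson r of log2 values, as a description in which the position differences themselves enter. For *hoxa13a* they were *fam89a* (0.96), *cxcr4a*, a chemokine receptor (0.96), and *gpr153* (0.95), and 7.96% of all genes compared had an r over 0.8. For *hoxa13b* they were si:dkey-74k8.3 (0.96), *emx3*, a homeobox gene (0.96), and *mcf2lb* (0.95), and 3.34% were over 0.8. For *hoxc13a* they were zgc:194839 (0.96), *hoxa4a* (0.95) and *ptgs2a*, a prostaglandin synthase (0.95). The 3 nearest genes of *hoxa13a* and *hoxa13b* differed, but they headed 1138 and 478 genes with an r over 0.8. A list of 3 therefore cannot show whether the patterns of the duplicates differ.

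For *hoxb13a* they were *dpyda.1*, a pyrimidine catabolic enzyme (0.98), *rsad2*, an antiviral gene induced by interferon (0.97), and si:dkey-83h2.5 (0.96), and 6.45% of genes were over 0.8. For *hoxd13a* the nearest were si:dkey-259j3.5 (0.91), *entpd2a.2* (0.90) and *arrb2b*, an arrestin (0.89). The values of *hoxc13b* were lower, 0.87 for si:dkey-247f17.3, 0.86 for *ftr59* and 0.84 for *vat1*, and 0.189% of genes were over 0.8. The rank in these lists follows how far a gene differs between positions as well as how libraries within a position differ.

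HOX proteins bind DNA with partners of the TALE homeodomain class, Pbx, Meis and Pknox. Of 13 measured TALE genes 2 were called higher and 5 lower in distal than in proximal fin in the authors' deposited table, beside 17.9% and 18.1% of all genes. The Meis gene *meis1a* had a fold of 0.247 and the Pknox gene *pknox2* a fold of 2.16, at 99.7 ± 4.56 normalized counts in distal and 46.2 ± 8.49 in proximal libraries. A wider list held genes that work beside group 13 genes in fins and limbs, and was chosen with earlier results of these data known. Of 44 measured, 26 were called higher distally and 8 lower, beside the same shares of all genes. The largest fold of that list, among genes with reads at both positions, was that of the actinotrichia gene *and1*, at 1960.0 ± 391 in distal and 6.72 ± 3.44 in proximal libraries, and next came the zinc finger gene *sall3b* (10.2-fold). The homeobox gene *alx4b* was among its lowest, at 1.12 ± 0.795 in distal and 18.6 ± 6.13 in proximal libraries. Among 23 measured genes that flank the HOX clusters, 2 were called higher and 4 lower, again beside 17.9% and 18.1% of all genes.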

How the data were processed

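The libraries hold rRNA-depleted total RNA read as 50 bp pairs, per the labels' protocols, and TopHat2 2.0.13, HTSeq, DESeq and the GRCz10 build are listed in the submitters' processing notes. The authors deposited 3 pairwise tables, whose signal columns are, from their values, means over 5 libraries of counts divided by size factors, with a fold change as a linear ratio, a log2 fold and DESeq p-values and adjusted p-values. The deposited table of monotonic genes is headed rpm, but its values are such means over 3 positions, with a score column that was not used here.

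From these, whole read counts per library were recovered by lattice reduction of the 15 digits printed (Python 3.11.15). This gave 23495 genes, of which 22532 had 1 proven solution in every position and 12 had none and were left out. The solutions were checked on the means of the monotonic table, where 489 of 489 distal, 554 of 554 middle and 554 of 554 proximal genes with a proven solution were met within a relative tolerance of 1e-13. Of genes solved without that proof, which stay in the fit and in the read totals, 155 of 158, 33 of 35 and 32 of 35 were met, and the fit was repeated without them. The method and the fit were also tested on simulated data. A limma voom fit (3.58.1) over all 15 libraries was made on the counts, for genes with at least 10 reads in 5 libraries, as the alternative to the authors' test. p-values were adjusted over all genes by Benjamini and Hochberg.

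Within-library ratios were compared as log2 of reads plus 0.5 by an exact permutation test of 252 splits. Likeness used log2 of normalized counts plus 1, for genes with a mean of at least 20. The 3 genes with the highest r were named for each group 13 gene, as were called HOX genes, neighbours, and the largest changes of the listed partner genes. The genes, lists and tests were chosen with earlier results of these data known. The labels call the libraries biological replicates. The precision of low genes is limited by reads: 3 reads over a position equal 0.653 normalized counts in distal, 0.567 in middle and 0.576 in proximal fin, a floor that covers counting error only.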

Additional observations from a re-analysis of the deposited data

How the results depend on the processing

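The limma fits of the recovered counts varied the filter, the scaling, the genes without a proven solution (chosen after seeing the data), the positions fitted and the libraries. Library totals, where used as the scale, were summed over genes with a proven solution only. Of 361 alternative values for the 6 genes in 3 comparisons, 309 kept their direction and their side of the threshold, 45 passed it where the authors' test had not and 0 lost a call. The other 7 turned their sign close to 0, with 0 of them called: *hoxc13a* between middle and proximal fin, at −0.0236 without middle library 1, and *hoxc13b* between distal and middle fin, at −0.0306 with library totals, −0.0116 and −0.0183 without distal library 1 or 5 and −0.00247, −0.0143 and −0.00335 without middle library 1, 2 or 3; the cause was not tested. These values are limma fits set against the authors' test, which calls fewer of all genes, so the absence of lost calls says little. Calls that only limma made were less stable with 1 library left out. That of *hoxc13a* between distal and middle fin was kept in 10 of 15 fits. Those of *hoxc13b* were kept in 13 of 15 between distal and proximal fin and 5 of 15 between middle and proximal fin. *hoxd13a* failed the filter without distal library 1, 2 or 4 or middle library 1 or 3, the libraries through which it passed. It also failed with the distal and proximal libraries alone and with the middle and proximal libraries alone. Those fits hold no value for it, so its call between distal and proximal fin could not be lost there. The count of called genes between middle and proximal fin moved most as a ratio: 1721 in the authors' table, 2601 with limma, 2598 without a filter, 2654 with library totals, 2893 with equal totals and 1994 to 2608 with 1 library left out (2588 without distal library 1 and 2608 without distal library 3). Called genes between distal and proximal fin numbered 8415 in the authors' table, 9713 with limma and 10289 without a filter, ranging from 8965 to 9832 with 1 library left out. Those between distal and middle fin numbered 6077 in the authors' table and 7295 with limma, ranging from 6472 to 7500, and the calls over the 6 genes from 8 to 12 (8 in the authors' table). With 1 library left out the log2 ratio of *hoxa13b* to *hoxa13a* differed by 0.42 to 0.59 between middle and proximal fin, 0.25 to 0.40 between distal and proximal fin and −0.26 to −0.09 between distal and middle fin. That of *hoxc13a* to *hoxc13b* differed by 0.72 to 0.98 between distal and proximal fin, 0.40 to 0.62 between distal and middle fin and 0.21 to 0.49 between middle and proximal fin. Adjusted p of the exact permutation test ran from 0.0476 to 0.111 for the first ratio between middle and proximal fin. For the second ratio between distal and proximal fin it ran from 0.0476 to 0.0952. No paired analysis was possible because the recovered libraries carry no replicate number from the labels. Depth limits *hoxb13a*, with 17 distal reads, and *hoxd13a* most.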

Other observations

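Genes outside the HOX family also followed the library deviations shared by *hoxa13b* and *hoxc13a* within a position. The nearest to *hoxa13b* over the 15 libraries were *fam83fa* (Pearson r = 0.95), the homeobox gene *emx3* (0.94) and *cblc*, a ubiquitin ligase gene (0.94). The nearest to *hoxc13a* were zgc:194839 (0.96), *rgma*, a repulsive guidance molecule (0.96), and *ptgs2a*, a prostaglandin synthase (0.96). Between positions these genes did not all follow the HOX genes: *fam83fa* averaged 57.0 normalized counts in distal and 102 in proximal libraries, while *emx3* averaged 359.7 in distal and 133 in proximal libraries. For *hoxb13a* the deviations within a position were most like those of *dpyda.1* (0.94) and *rsad2* (0.94), the genes also nearest to it over all libraries. These 2 values lean on few distal reads of *hoxb13a*. Its log2 deviation was −1.95 in distal library 3, with 0 reads, and 0.93 in distal library 2, with 6 reads. In middle and proximal libraries its deviations lay between −0.42 and 0.51. These are descriptions over 15 libraries, in each of which all genes share 1 size factor, with no test.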
